A study of Homo sapiens with 13 samples.

Results

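The response that remained under the highest dose of a BMP receptor inhibitor was described by setting 1 bulk RNA-seq library against another. In the first, cells received 100 ng/mL BMP4, 5 µM IWP2, RI (ROCK inhibitor) and 300 nM LDN-193189 (LDN) and were lysed at 5 h. In the second, untreated cells were kept in mTeSR, a medium that maintains pluripotency, and were also lysed at 5 h. Both were chosen by their labels and are 2 of the 13 libraries of the study and 2 of the 6 of its dose response. The other 4 libraries of the dose response received the same BMP4, IWP2 and RI with 0, 10, 30 or 100 nM LDN, and they were used to ask whether a gene followed the LDN dose. All 6 were polyA-selected libraries of RUES2 human embryonic stem cells with a GFP::SMAD4 fusion, a single tagged line. The 2 libraries at 0 h of the time series, made from the same line with another RNA kit and ribosomal RNA depletion, gave the spread between libraries of 1 condition.

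The label of the untreated library names mTeSR alone, whereas the growth protocol lists ROCK inhibitor for all cells. BMP4, IWP2, LDN and possibly RI therefore changed together with the library, and their parts cannot be told apart from these 2 libraries. There was 1 library of each condition, so no p-value could be computed from these 2 libraries. Ratios are given with a 95% exact counting interval, which covers counting error only. A ratio of at least 2 in CPM, with 0.1 CPM added, was used as a threshold. CPM is the count of a gene scaled to the same total in every library. All tests in the text rest on the scatter of the dose libraries about a straight line over dose steps, which measures the spread between these libraries alone. Nothing in the labels says that the libraries came from separate cultures on separate days.

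BMP ligands bind pairs of receptor kinases, and the type I receptors phosphorylate SMAD1, SMAD5 and SMAD9, which join SMAD4 and enter the nucleus. LDN inhibits those type I receptor kinases. In pluripotent cells the most direct targets include the ID genes, whose products bind basic helix-loop-helix transcription factors and keep them off DNA, and a group of feedback inhibitors that act at the ligand (NOG), at the receptor (BAMBI) or on SMADs (SMAD6, SMAD7). IWP2 blocks the enzyme that lipid-modifies Wnt ligands, so that they are not secreted, and AXIN2, a scaffold of the β-catenin destruction complex, is a standard readout of Wnt activity. NODAL and its antagonists LEFTY1 and LEFTY2 are controlled by Nodal itself and, in these cells, by Wnt.

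The upstream sequences of 3 genes are shown because these genes kept a large (ID1), a middle (BAMBI) and a small (SMAD6) share of their response at 300 nM LDN. Each is the 250 bases before the RefSeq transcript start in GRCh38.p14, on the plus strand, and covers chr20:31605039-31605288 for ID1, chr10:28677271-28677520 for BAMBI and chr15:66701986-66702235 for SMAD6. Capitals mark matches to GGCGCC, a GC-rich element bound by BMP-activated SMADs, or to GTCTAGAC, a palindrome of the shorter SMAD box. Both motifs read the same on either strand and do not overlap each other.
ID1: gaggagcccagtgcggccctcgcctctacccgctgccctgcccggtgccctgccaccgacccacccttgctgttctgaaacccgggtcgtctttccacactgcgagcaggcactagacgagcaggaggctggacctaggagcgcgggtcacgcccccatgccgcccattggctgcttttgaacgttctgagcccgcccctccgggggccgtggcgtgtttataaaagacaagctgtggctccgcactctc
BAMBI: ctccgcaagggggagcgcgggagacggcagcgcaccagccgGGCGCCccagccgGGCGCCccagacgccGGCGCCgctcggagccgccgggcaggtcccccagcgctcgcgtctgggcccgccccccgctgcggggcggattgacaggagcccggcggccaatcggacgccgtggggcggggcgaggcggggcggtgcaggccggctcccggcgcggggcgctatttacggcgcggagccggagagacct
SMAD6: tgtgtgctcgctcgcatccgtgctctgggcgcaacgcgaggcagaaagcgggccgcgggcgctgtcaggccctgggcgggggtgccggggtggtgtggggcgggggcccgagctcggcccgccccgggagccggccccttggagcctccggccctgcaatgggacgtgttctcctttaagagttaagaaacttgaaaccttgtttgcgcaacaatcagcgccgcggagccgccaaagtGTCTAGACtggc
The window of ID1 holds neither motif, that of BAMBI holds GGCGCC 3 times and that of SMAD6 holds GTCTAGAC once, 12 bases before the start. Among all 35116 promoters of the same table, GGCGCC was found in 16.4% and GTCTAGAC in 0.182%. Of the 23 BMP-induced genes listed for this work, 17 had an entry, and 3 of them held GGCGCC and 1 GTCTAGAC in any of their windows. This count is per gene, and some genes have several promoters, whereas the shares over all promoters are per promoter. These matches describe letters in a short window and say nothing about binding.

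The untreated library stood apart from the other 5 in depth and composition. It held 15600931 counts, against 28742690 to 33989998 in the 5 libraries with BMP4, so that 3 counts came to 0.192 CPM in untreated cells and 0.0905 CPM at 300 nM LDN. Mitochondrial genes took 7.89% of its counts and 4.22 to 4.49% in the others, and in the 2 libraries at 0 h they took 7.60% and 4.29%. Ratios of 300 nM LDN over untreated were higher for transcripts of higher GC content (Spearman 0.186 over 14859 genes, which share the same libraries), and the median log2 ratio was 0.02 in the lowest and 0.22 in the highest of 5 equal bins of GC content. The median over all genes was 0.07, and 0.02 with mitochondrial genes left out of the totals.

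Of 14877 genes that averaged 1 CPM or more across the 6 libraries, 332 (2.23%) were at least 2-fold higher at 300 nM LDN than in untreated cells and 96 (0.645%) at least 2-fold lower. Without mitochondrial genes in the totals these counts were 298 (2%) and 113 (0.76%). Without LDN, 914 genes (6.14%) were at least 2-fold higher than untreated and 302 (2.03%) lower. Between the 2 libraries at 0 h, 259 of 15621 genes (1.66%) differed by at least 2-fold in either direction. Over 0 to 100 nM LDN, which includes neither of the compared libraries, 1094 of 14873 genes (7.36%) fell and 982 (6.6%) rose with the dose by edgeR's quasi-likelihood test at an adjusted p under 0.05, and 580 and 319 did so without the 0 nM library. Of the 1094 genes that fell with LDN, 70 (6.40%) were at least 2-fold higher at 300 nM LDN than in untreated cells, with a median log2 ratio of 0.18. Among 12801 genes with no called trend, 246 (1.92%) were that much higher, with a median of 0.06.

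**Figure D1:**
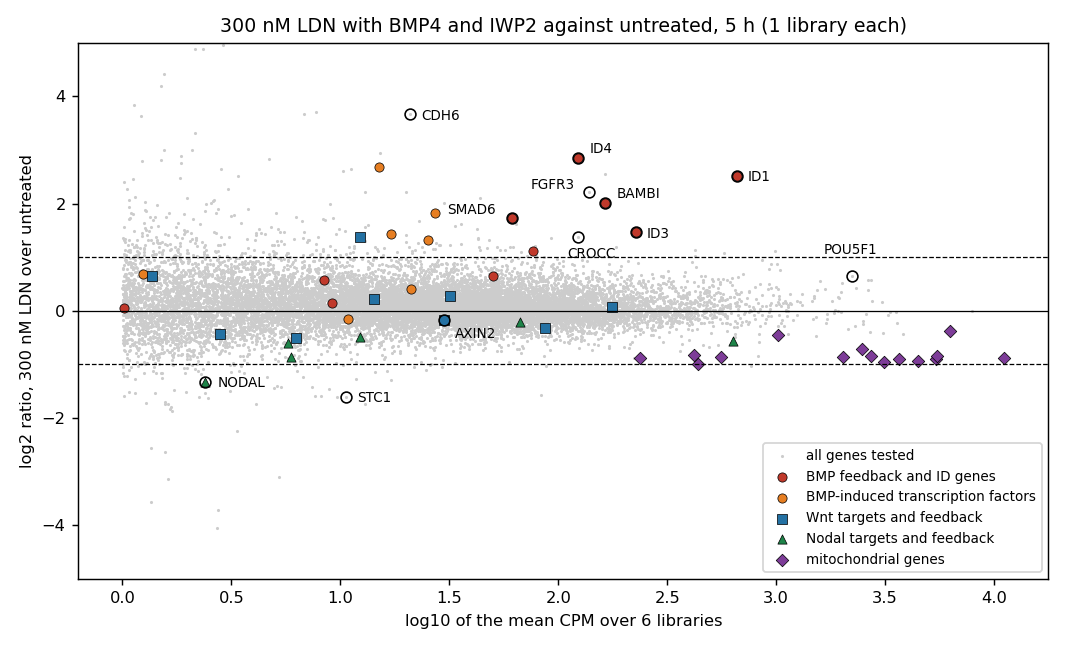
Each point is a gene, with the log10 of its mean CPM over the 6 libraries on the horizontal axis and the log2 ratio of 300 nM LDN over untreated on the vertical axis. Colours mark gene lists and dashed lines a 2-fold difference. ID1, ID3, ID4, BAMBI and SMAD6 lie above the upper line, AXIN2 lies near 0 and the 15 mitochondrial genes lie below 0, while 12 genes fall outside the axis.

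The cells of both libraries expressed pluripotency factors at high levels, and most listed markers of other fates were under the expression minimum. POU5F1 had 2319 CPM at 300 nM LDN, against 1473 CPM untreated, and SOX2 had 428 and 348 CPM. Of 8 markers of primitive streak and endoderm, 1 passed the expression minimum, and the other 7 were at or under 0.513 CPM at 300 nM LDN. The exception, EOMES, a T-box factor of the streak, stood at 2.71, 2.03, 2.89, 2.03 and 1.18 CPM over the 5 doses and 0.128 CPM (2 counts) in untreated cells, a ratio of 9.18 (2.38 to 78.5) at 300 nM with no called trend. With so few untreated counts its log2 ratio was 0.95 with 1 CPM added in place of 0.1 and 1.81 in FPKM, against 2.48. In untreated cells FOXA2, a regulator of endoderm, stood at 3.97 CPM (62 counts), against 0.181 CPM at 300 nM LDN, and the summed level of these 8 markers was 2.32 CPM at 300 nM LDN and 5.51 CPM in untreated cells. Of 6 neuroectoderm markers 1 (OTX2) passed the minimum, and the 6 summed to 50.4 CPM at 300 nM LDN and 60.4 CPM in untreated cells. Of 9 amnion and trophoblast markers 4 passed it, and the 9 summed to 37.7 and 32.2 CPM. In this last list CGA, GCM1 and ELF5 had no count in either library. That allows up to 0.192 CPM in untreated cells and 0.0905 CPM at 300 nM LDN (3 counts).

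Most ID genes and feedback inhibitors of BMP signaling were above untreated cells at 300 nM LDN. In bulk RNA, fewer responding cells and less RNA per cell cannot be told apart. Of the 10 genes in this list, 6 were at least 2-fold higher and 0 lower, beside 2.23% and 0.645% of all genes, and the median log2 ratio was 1.29 (1.24 without mitochondrial genes in the totals). Over 0 to 100 nM LDN 9 of the 10 fell with the dose, beside 7.36% of all genes. Among them NOG passed the expression minimum only through libraries with less LDN. ID1 (ENSG00000125968, chr20:31605283-31606515 on the plus strand of GRCh38) stood at 1055, 1000.1, 843, 616 and 376 CPM at 0, 10, 30, 100 and 300 nM LDN and at 65.6 CPM in untreated cells. Each added dose lowered ID1, yet the lowest treated library was still far above the untreated one. The ratio at 300 nM was 5.73 (5.38 to 6.12), from 12473 and 1024 counts. Per dose step ID1 fell by 0.25 ± 0.03 (SE) on the log2 scale (edgeR adjusted p = 2.35e-05).

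ID4 and ID3, which encode proteins of the same family, followed the same order of libraries. ID4 stood at 231, 195, 155, 100.4 and 53.5 CPM over the 5 doses and 7.37 CPM in untreated cells, a ratio of 7.26 (6.01 to 8.84) at 300 nM. ID3 had 325, 328, 297, 223 and 142 CPM and 51.5 CPM, a ratio of 2.76 (2.56 to 2.98). The 0 and 10 nM libraries hardly differed for ID3, and its trend (a fall of 0.17 ± 0.03 per step, edgeR adjusted p = 0.00195) was not called without the 100 nM library (0.148) or by DESeq2 (0.0755). ID2 had 142, 119.7, 90.3, 60.3 and 34.0 CPM and 15.6 CPM in untreated cells, a ratio of 2.18 (1.90 to 2.52).

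Among the inhibitors, BAMBI, a pseudoreceptor that lacks a kinase domain, and SMAD6, an inhibitory SMAD, also kept a margin over untreated cells. BAMBI (chr10:28677510-28682932) stood at 317, 279, 214, 114 and 49.3 CPM over the doses and 12.2 CPM in untreated cells, a ratio of 4.03 (3.46 to 4.70). SMAD6 (chr15:66702236-66782849), whose upstream window holds the SMAD palindrome, had 167, 101, 57.1, 27.3 and 11.1 CPM and 3.27 CPM, a ratio of 3.41 (2.54 to 4.66). SMAD6 fell by 0.84 ± 0.03 per step, against 0.25 ± 0.03 for ID1. SMAD7, which also limits TGF-β and Nodal receptors, was less changed, with 76.4, 67.6, 56.7, 42.7 and 34.6 CPM over the doses, 22.0 CPM in untreated cells and a ratio of 1.57 (1.39 to 1.78).

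For SMAD9, NOG and ATOH8 no difference from untreated cells was detectable at 300 nM at this depth. SMAD9, a receptor-activated SMAD, stood at 23.7, 13.4, 9.13, 3.70 and 2.47 CPM over the doses and 2.24 CPM in untreated cells, a ratio of 1.10 (0.734 to 1.69). NOG, which encodes the secreted antagonist noggin, had 30.1, 13.7, 4.89, 1.42 and 0.241 CPM over the doses (8 counts at 300 nM), where untreated cells had 2 counts. Its ratio of 1.88 had a counting interval of 0.376 to 18.2, too wide to place it. ATOH8 was low throughout, with 1.98 CPM without LDN and 0.641 CPM in untreated cells, a ratio of 1.04 (0.471 to 2.45) at 300 nM, and was the 1 member without a called trend (edgeR adjusted p = 0.0603).

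**Figure D2:**
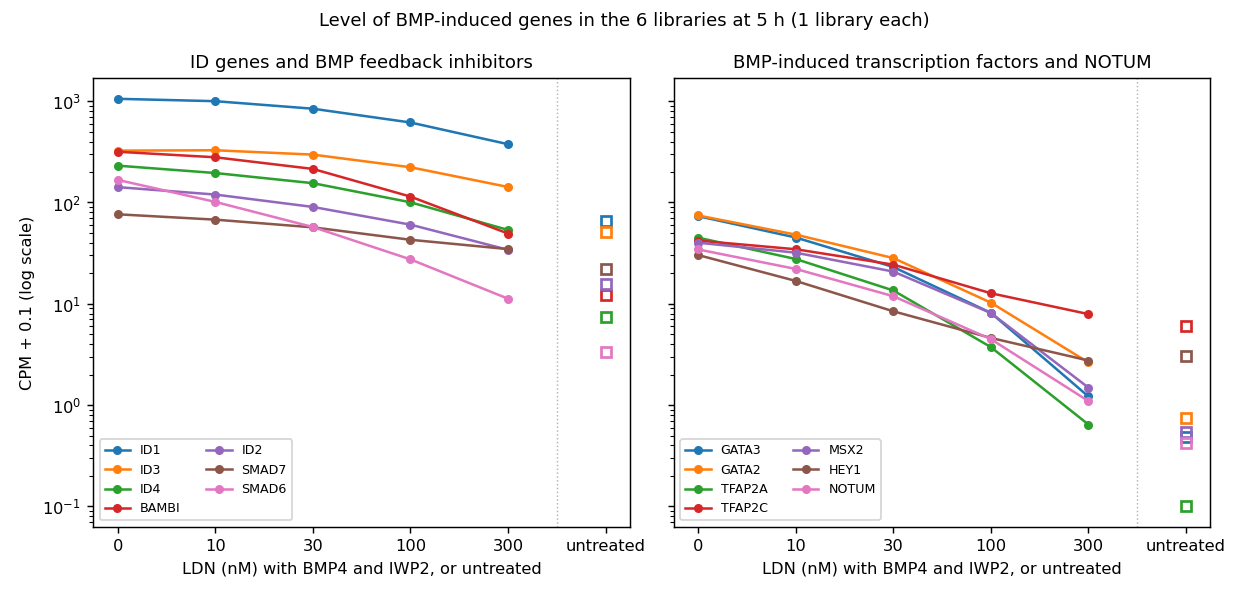
CPM + 0.1 on a log axis in each of the 6 libraries, with filled circles for the 5 LDN doses (evenly spaced steps, not to scale) and open squares for untreated cells. At 300 nM LDN the 7 genes on the left all lie above their squares, with ID1 at 376 against 65.6 CPM, while HEY1 on the right lies at its square.

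The transcription factors that BMP4 induces are regulators of amnion and trophoblast fate. With 0.1 CPM added, their ratios at 300 nM were like those of the ID and feedback genes, but at levels of a few CPM. Of 13 listed factors, 7 passed the expression minimum and all 7 fell with LDN over 0 to 100 nM, beside 7.36% of all genes. TFAP2A and HAND1 passed that minimum only through libraries with less LDN, which favoured a falling trend for them. At 300 nM LDN 4 of the 7 were at least 2-fold higher, beside 2.23% of all genes, and the median log2 ratio over the 7 was 1.33. That median was 0.61 with 1 CPM added in place of 0.1 and 0.49 in FPKM, whereas that of the ID and feedback genes was 1.26 with 1 CPM added. With 1 CPM added only GATA2 stayed past 2-fold (log2 ratio 1.11), and MSX2 and TFAP2A had 0.72 and 0.63. GATA3 stood at 73.2, 45.0, 23.0, 8.04 and 1.12 CPM over the doses and 0.385 CPM in untreated cells (37 counts at 300 nM and 6 untreated), a ratio of 2.90 (1.21 to 8.41). GATA2 had 74.3, 48.1, 28.2, 10.2 and 2.53 CPM and 0.641 CPM, a ratio of 3.95 (2.05 to 8.54). Both GATA factors, which act early in trophoblast and amnion fate, thus stood at a few CPM at 300 nM and, in CPM, above the untreated level by their intervals. In FPKM the log2 ratio of GATA3 was only 0.17, against 1.33 in CPM, and with 1 CPM added it was 0.61. MSX2, a homeobox factor, had 40.0, 31.9, 20.7, 8.01 and 1.39 CPM and 0.449 CPM in untreated cells. TFAP2A, an early regulator of the surface ectoderm and amnion programme, had 44.8, 27.6, 13.4, 3.63 and 0.543 CPM over the doses and no count in untreated cells. Its level at 300 nM (18 counts) was at least 2.82-fold higher than a floor of 3 counts in that library.

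TFAP2C and HEY1 were the listed factors nearest to untreated cells in ratio. TFAP2C, which is expressed in the pluripotent state, stood at 42.0, 34.5, 24.3, 12.6 and 7.81 CPM over the doses and 5.90 CPM in untreated cells, a ratio of 1.33 (1.04 to 1.70). HEY1, a repressor that Notch also induces, had 30.2, 16.7, 8.33, 4.50 and 2.65 CPM and 2.95 CPM, a ratio of 0.900 (0.623 to 1.32), with 1 inside the interval. HAND1 had 3.76 CPM without LDN and 2 counts at 300 nM. The other 6 factors (MSX1, DLX3, DLX5, TBX3, CDX2 and ISL1) stayed under the expression minimum.

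To set genes of different level side by side, the rise without LDN over untreated cells was taken as 100%, and the share of it left at each dose was computed. The untreated library enters every share. ID1 kept 31.4% at 300 nM (counting interval 30.6 to 32.2%), after 94.4%, 78.5% and 55.6% at 10, 30 and 100 nM. For ID3 the share at 300 nM was 33.2% (31.3 to 35.1%), which did not differ from that of ID1 beyond counting error. The shares of SMAD7 (23.1%, 18.0 to 28.3%) and ID4 (20.6%, 19.3 to 22.0%) overlapped in the same way, as did those of ID2 (14.6%, 12.5 to 16.8%) and BAMBI (12.2%, 11.2 to 13.1%). These 6 genes, all of the ID and feedback group, kept more than 10% of their rise. SMAD6 kept 4.80% (3.92 to 5.68%), with an interval below that of BAMBI. Among the transcription factors TFAP2C kept 5.31% (1.18 to 9.45%), GATA2 2.57% (1.66 to 3.48%) and MSX2 2.37% (1.06 to 3.69%), and the intervals of these 3 overlapped. TFAP2A (1.21%, 0.648 to 1.78%), GATA3 (1.0%, 0.356 to 1.65%) and NOG (0.378%, -0.435 to 1.19%) had low shares whose intervals overlapped each other. In FPKM the shares of TFAP2A and GATA3 were 2.17% and 0.19%. For SMAD9 (1.07%, -3.17 to 5.32%) and HEY1 (-1.08%, -4.84 to 2.69%) the interval included 0, and for ATOH8 (1.69%, -34.0 to 37.4%) it was too wide to place the gene. At 30 nM NOG kept 15.9% and ID3 89.7% of their rise.

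**Figure D3:**
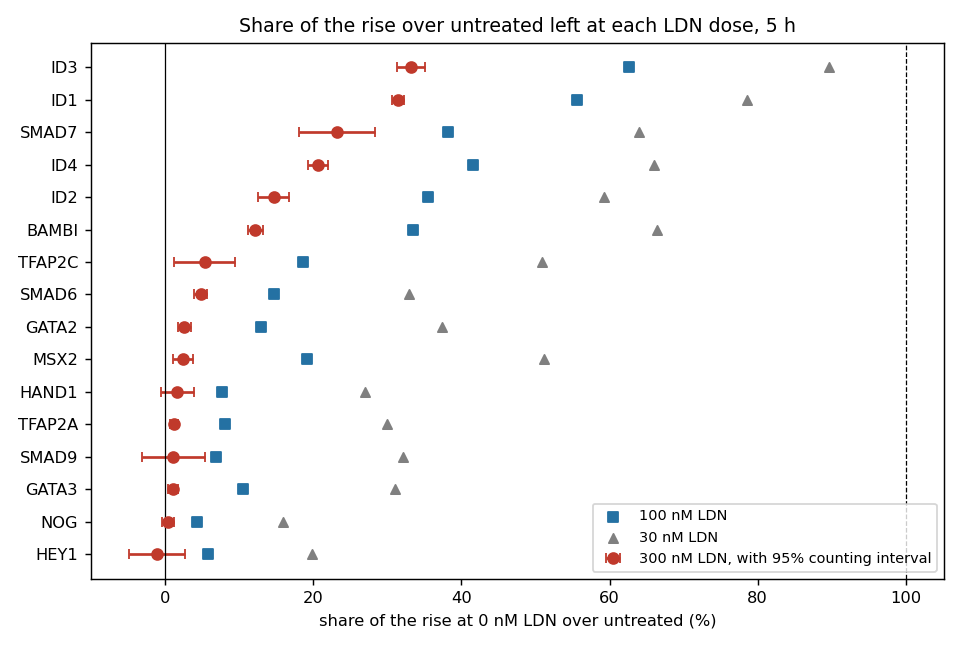
Share of the rise at 0 nM LDN over untreated (%) that was left at 30 nM (triangles), 100 nM (squares) and 300 nM LDN (circles with 95% counting intervals) for listed BMP genes. At 300 nM ID3 and ID1 lie near 33.2% and 31.4%, and GATA3, NOG and HEY1 lie near 0.

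The same measure was taken over all 461 genes that fell with LDN over 0 to 100 nM and were at least 2-fold higher without LDN than in untreated cells, a choice that used the untreated library. The median share left at 300 nM was 14.5%, with quartiles at 5.82% and 26.9%. Of the 461, 70 (15.2%) were at least 2-fold and 174 at least 1.5-fold above untreated cells, 168 kept under 10% and 130 over 25%, and 50 lay below untreated cells. Several were named after their values were seen. COL9A3, a chain of a cartilage collagen, had 121, 115, 105, 93.1 and 87.8 CPM over the doses and 34.4 CPM in untreated cells, and kept 61.8%. Its treated libraries lay within 1.5-fold of each other and all at least 1.5-fold above untreated cells. How much of its share reflects the untreated library rather than the treatments cannot be told apart. PLEC, which encodes the cytoskeletal linker plectin, had 586, 549, 476, 409.7 and 351 CPM and 160.1 CPM and kept 45.0%. At the other end BMP7, a BMP ligand, had 38.7, 27.5, 18.2, 10.2 and 5.61 CPM and 5.38 CPM and kept 0.681%. NKX1-2, a homeobox factor, had 225, 162, 120.1, 69.0 and 38.4 CPM and 38.5 CPM, so its whole response was gone at 300 nM. SGK1, a kinase, went below untreated cells, with 47.3, 32.6, 21.2, 15.0 and 9.87 CPM over the doses and 13.9 CPM untreated.

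Among genes with a symbol that averaged 10 CPM or more, the 10 largest ratios belonged to CDH6, ID4, TFAP2A, GREM1, PCAT14, ID1, FGFR3, LINC02593, BAHCC1 and COL9A2. Except for CDH6, all of them fell with LDN over 0 to 100 nM, beside 7.36% of all genes. TFAP2A, GREM1, PCAT14, LINC02593 and BAHCC1 were under 10 CPM in both compared libraries. They passed the minimum only through libraries with less LDN, so for them the rule itself favoured a falling trend. CDH6 (chr5:31193686-31329146), which encodes the adhesion protein cadherin 6, stood at 28.9, 31.9, 27.0, 23.1 and 13.4 CPM over the doses and 0.961 CPM (15 counts) in untreated cells, a ratio of 13.9 (8.34 to 25). It was near its level without LDN up to 30 nM and kept 44.4% (38.9 to 49.9%) of its rise at 300 nM. Its trend over 0 to 100 nM missed the threshold (edgeR adjusted p = 0.0599), and passed without the 0 nM library (0.00334) or without the 30 nM library (0.032). In FPKM its log2 ratio was 2.47, against 3.67 in CPM.

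FGFR3, a receptor for fibroblast growth factors, had 222, 206, 175, 128 and 79.0 CPM over the doses and 17.0 CPM in untreated cells, a ratio of 4.65 (4.09 to 5.29) and a share left of 30.3%. GREM1, a secreted BMP antagonist, had 23.5, 17.7, 14.2, 7.78 and 3.35 CPM and 0.449 CPM, a ratio of 7.46 (3.50 to 19.0) and a share of 12.6%. COL9A2 had 109.7, 72.6, 42.6, 22.3 and 11.7 CPM and 2.63 CPM and kept 8.45%. PCAT14, a long noncoding RNA, had 501, 288, 145, 39.7 and 6.15 CPM over the doses and 0.961 CPM in untreated cells. Its ratio of 6.40 (3.79 to 11.6) at 300 nM corresponded to 1.04% of its rise, so a large ratio over a near-silent gene went with a small share. LINC02593 (12 counts at 300 nM, 0 untreated) was at least 1.88-fold above the floor, and BAHCC1 kept 2.68%.

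A fit over all 6 libraries, with a dose step and a separate term for untreated cells, tested the fitted 300 nM level against the untreated library. The single untreated library has no scatter of its own in this fit and was assumed to vary like the others, so each p-value sets it against the scatter of the dose libraries and cannot tell a treatment from a library difference. In it 2461 genes (16.5%) were called higher and 2448 (16.5%) lower, so a call was common. With library totals in place of TMM factors these counts were 3246 and 1715. ID1 (log2 difference 2.69 ± 0.20, edgeR adjusted p = 1.56e-06), FGFR3 (2.39 ± 0.23, 1.29e-05), ID4 (3.09 ± 0.32, 2.21e-05) and CDH6 (4.07 ± 0.48, 5.17e-05) were among those called higher. In all, 7 of 10 genes of the ID and feedback list were called higher and 0 lower. Of the 7 transcription factors 1 was called, GATA2 (edgeR adjusted p = 0.0386), and its call was lost without the 100 nM library (0.0649). GATA3, MSX2 and TFAP2A missed the threshold (edgeR adjusted p = 0.0914, 0.0961 and 0.0698) and passed it with a squared dose term. The straight line overshot the 300 nM library for GATA2, GATA3 and MSX2. Their fitted log2 differences were 2.88, 3.07 and 3.08, against log2 ratios of 1.83, 1.33 and 1.44 in CPM. Wherever the 300 nM library is left out of this fit, the 300 nM level is extrapolated from 0 to 100 nM. GATA3, MSX2 and TFAP2A also passed the threshold then, with 3.66 for GATA3 and 3.80 for MSX2, but no 300 nM data entered. Such a result cannot show what was left at 300 nM.

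Wnt targets and feedback genes were mixed and mostly near the untreated level. Of 15 listed genes 9 passed the expression minimum, 1 (NOTUM) was at least 2-fold higher and 0 lower, and the median log2 ratio was 0.07, or -0.00 with DESeq2 size factors and 0.27 in FPKM. AXIN2 (ENSG00000168646, chr17:65528563-65561648) stood at 15.3, 19.4, 25.8, 33.0 and 40.0 CPM at 0, 10, 30, 100 and 300 nM LDN and at 45.3 CPM in untreated cells. The treated libraries rose step by step toward the untreated level, in the opposite direction to ID1, although IWP2 was the same in all 5. The rise was 0.38 ± 0.03 (SE) per step (edgeR adjusted p = 1.33e-06). At 300 nM AXIN2 was 1.13-fold lower than untreated (1.03 to 1.24), or 0.21 ± 0.08 lower on the log2 scale in the 6-library fit (edgeR adjusted p = 0.0531), which ranged on both sides of the threshold over the alternatives (0.0318 with a squared dose term, 0.0481 with DESeq2 size factors, 0.0426 without the 0 nM library). In CPM without mitochondrial genes the log2 ratio was -0.23.

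MYC, a growth regulator and Wnt target in other tissues, moved like AXIN2, with 55.7, 71.8, 74.0, 87.5 and 102 CPM over the doses and 128 CPM in untreated cells. It was 1.25-fold lower at 300 nM (1.19 to 1.33) in CPM, and its log2 ratio was 0.10 in FPKM. NKD1, an inhibitor of Dishevelled, had 8.52, 5.71, 5.66, 5.24 and 5.13 CPM and 7.37 CPM, 1.44-fold lower (1.12 to 1.83). NKD1 was flat between 10 and 300 nM, its trend (edgeR adjusted p = 0.0347) was not called without the 0 nM library (0.817), and in FPKM its log2 ratio was 1.39 rather than -0.51. ZNRF3, which removes Wnt receptors from the membrane, stood at 30.5, 31.8, 32.5, 34.6 and 33.3 CPM over the doses and 27.5 CPM, a ratio of 1.21 (1.08 to 1.36).

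CCND1, LEF1, TCF7 and APCDD1 had no called trend over 0 to 100 nM. CCND1, a cyclin of G1 phase, had 159 CPM at 300 nM against 151 CPM untreated, a ratio of 1.05 (1.0 to 1.11). LEF1 and TCF7, the DNA-binding partners of β-catenin, had ratios of 1.63 (0.864 to 3.29) and 1.16 (0.955 to 1.42), and APCDD1, a Wnt inhibitor, one of 0.728 (0.487 to 1.10). The intervals of LEF1, TCF7 and APCDD1 included 1. NOTUM, a secreted enzyme that inactivates Wnt ligands, followed the LDN dose in the direction of the BMP-induced factors. It had 34.3, 22.0, 11.8, 4.37 and 0.996 CPM over the doses and 0.320 CPM (5 counts) in untreated cells, fell by 0.91 ± 0.06 per step (edgeR adjusted p = 1.84e-07) and kept 1.99% of its rise. NOTUM was under 1 CPM in both compared libraries and passed the expression minimum only through libraries with less LDN, which favoured a falling trend. With 1 CPM added in place of 0.1 its log2 ratio was 0.60, under the 2-fold threshold, against 1.38. SP5, RNF43, TNFRSF19, LGR5, DKK1 and DKK4 were under the expression minimum.

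The Nodal genes lay below untreated cells at every LDN dose. Of the listed genes 6 passed the expression minimum, 1 was at least 2-fold lower and 0 higher, the median log2 ratio was -0.58 (-0.63 without mitochondrial genes in the totals, -0.79 in FPKM), and all 6 were called lower in the 6-library fit. NODAL, the ligand, stood at 1.46, 1.59, 1.11, 2.06 and 2.29 CPM over the doses and 5.90 CPM in untreated cells, 2.57-fold lower at 300 nM (1.88 to 3.53). The treated libraries lay together and showed no called trend (edgeR adjusted p = 0.578). LEFTY1, a secreted Nodal antagonist, rose with LDN, with 1.60, 1.74, 3.90, 6.69 and 7.66 CPM over the doses and 14.0 CPM in untreated cells, an increase of 0.77 ± 0.09 per step (edgeR adjusted p = 4.15e-05). At 300 nM it was 1.83-fold lower than untreated (1.52 to 2.20), and its call in the 6-library fit was lost without the 300 nM library (0.278). LEFTY2 had 5.98, 4.35, 4.12, 5.34 and 5.85 CPM and 8.91 CPM, 1.52-fold lower (1.22 to 1.90). LEFTY1 and LEFTY2 are near-identical in sequence, so reads may have been split between them.

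TDGF1, the co-receptor of NODAL, was the most abundant gene of the list, with 519, 543, 586, 601 and 628 CPM over the doses and 926 CPM in untreated cells, 1.47-fold lower at 300 nM (1.44 to 1.51). It rose by 0.08 ± 0.01 per step (edgeR adjusted p = 0.00125), a small part of its distance to untreated cells. SMAD3, a SMAD of Nodal and activin signaling, had 8.73, 9.91, 11.6, 13.3 and 12.6 CPM and 17.6 CPM, and FOXH1, its DNA-binding partner, 57.2, 61.5, 69.4, 66.3 and 67.9 CPM and 78.8 CPM. Both were called lower at the fitted 300 nM level (edgeR adjusted p = 0.019 and 0.0253), and neither call held without the 300 nM library (0.186 and 0.158), nor that of FOXH1 without the 100 nM library (0.0542). CER1 was under the expression minimum. The part of IWP2 in these values was not tested, since no library had BMP4 without it, and the untreated library differed from all 5 others in depth and mitochondrial share.

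**Figure D4:**
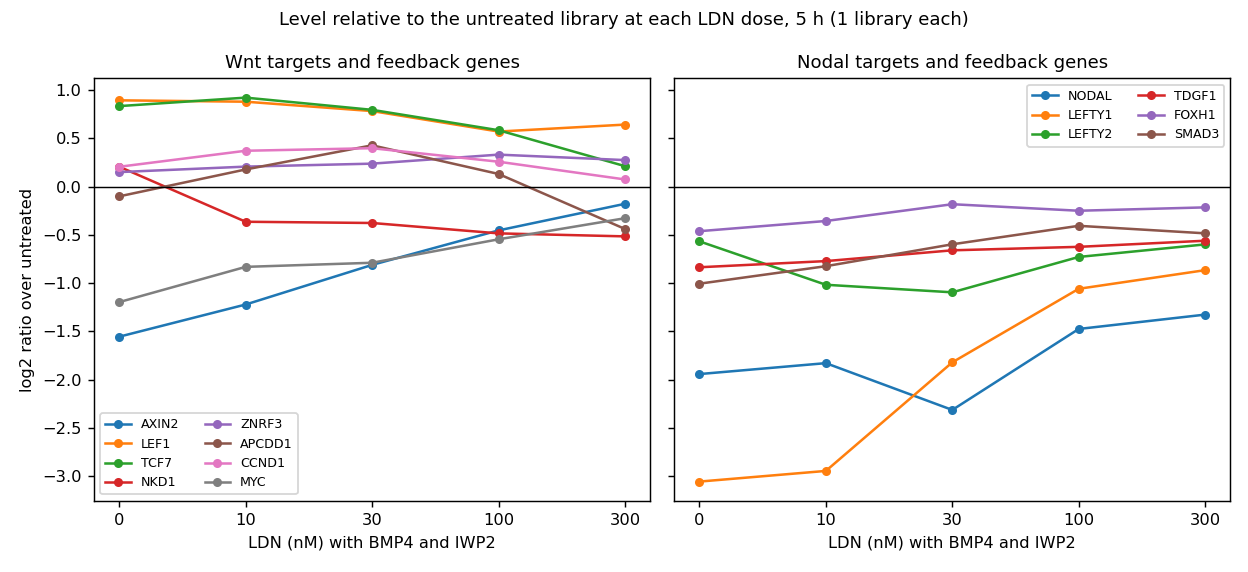
Log2 ratio of each LDN dose over untreated for Wnt genes (left, without NOTUM) and Nodal genes (right), with 0 marking the untreated level and evenly spaced dose steps. AXIN2, MYC and LEFTY1 climb toward 0 with dose, and all 6 Nodal genes stay below 0.

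Many of the remaining differences did not follow the LDN dose. A common shift was noted where all 5 libraries with BMP4 and IWP2 were at least 1.5-fold from untreated on the same side and within 1.5-fold of each other. It was found in 522 genes (3.51%) on the higher and 128 (0.86%) on the lower side. Of the 332 genes at least 2-fold higher at 300 nM LDN, 136 (41.0%) had this shift, 70 (21.1%) fell with LDN, 16 rose with it and 121 (36.4%) showed neither, with 11 genes counted under both a trend and the shift. Of the 96 lower genes, 30 (31.2%) had it, 10 fell and 12 rose with LDN, and 46 (47.9%) showed neither, with 2 counted under both. Low expression marked these calls, since 248 of the 332 had a mean under 10 CPM, beside 4855 of all 14877 genes (32.6%). Of the 332, 76 (22.9%) had no symbol, against 5.39% of all genes.

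The 2 libraries at 0 h also differed in these genes. Of the 522 genes with a shift to the higher side, 503 were expressed at 0 h, and 402 of these (79.9%) were higher in replicate 2, the library with the lower mitochondrial share, with a median log2 difference of 0.41. Of 124 such genes on the lower side, 98 (79.0%) were lower in replicate 2. Over all genes 48.4% were higher in replicate 2, and among 391 BMP-responsive genes expressed at 0 h 47.1% were, with a median of -0.05. Of the ID and feedback genes, 8 were expressed at 0 h and 7 of these (87.5%) were higher in replicate 2, with a median log2 difference of 0.22, beside their median log2 ratio of 1.29 at 300 nM LDN over untreated. Across 14496 genes, which are not independent replicates, the log2 ratio of 300 nM LDN over untreated and that of replicate 2 over replicate 1 at 0 h had a Spearman correlation of 0.319. The 0 h pair also differed by base composition. Its log2 ratio of replicate 1 over replicate 2 had a Spearman correlation of -0.514 with GC content and 0.436 with transcript length. The median of that ratio was 0.23 in the lowest and -0.32 in the highest of 5 equal bins of GC content. The median GC content of the shifted genes on the higher side was 57.9%, against 48.3% over all genes. At 4 h of BMP4 in the time series, 23.4% of them were at least 1.5-fold higher than at 0 h, beside 11.0% of all genes and 91.5% of the BMP-responsive genes. Whether the common shift came from the treatments or from the untreated library cannot be told apart.

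CROCC, which encodes the ciliary rootlet protein rootletin, was nearly even across the treated libraries, with 137, 136, 138, 137 and 138 CPM over the doses and 53.1 CPM in untreated cells, a ratio of 2.61 (2.42 to 2.81). APOE, a lipid carrier, had 994, 1097, 1120.2, 1104 and 1099 CPM and 505 CPM, a ratio of 2.18 (2.12 to 2.23). At 0 h the log2 difference of replicate 2 over replicate 1 was 0.37 for CROCC and 0.91 for APOE, so both were also higher in the library with fewer mitochondrial counts. CCDC85B (2.51-fold) and SLX9 (2.27-fold) were further genes with a large ratio and a called rise with LDN. Neither rise was called without the 0 nM library (edgeR adjusted p = 0.785 and 0.0712), and that of SLX9 was also not called without the 30 nM (0.0658) or 100 nM library (0.264) or by DESeq2 (0.197). ABCF2-H2BE1, ITGB1P1, CBSL and RN7SL2 were named by the same rule, with ratios of 2.69 to 3.23, but each is a readthrough or a near-identical copy of another gene, so its counts are uncertain.

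POU5F1, the pluripotency factor OCT4, showed the same shape at a high level, with 2391, 2419.9, 2431, 2395 and 2319 CPM over the doses and 1473 CPM in untreated cells, a ratio of 1.57 (1.55 to 1.60). The 5 treated libraries lay within a narrow band with no called trend, and at 0 h POU5F1 was also higher in replicate 2, by 0.78 on the log2 scale. POU5F1 has processed copies in the genome that can share its reads. The other 9 listed pluripotency factors did not meet the rule for a common shift. NANOG had 93.4 CPM at 300 nM LDN, against 129 CPM untreated, 1.38-fold lower (1.3 to 1.46). PRDM14, a repressor of differentiation genes, had 14.6, 25.2, 40.1, 63.1 and 76.3 CPM over the doses and 73.1 CPM in untreated cells, and so had returned to the untreated level at 300 nM (ratio 1.04, 0.973 to 1.12). DNMT3B, a DNA methyltransferase, rose with LDN, with 1394, 1739, 1960.1, 2218 and 2329.6 CPM over the doses, and at 300 nM stood above the 1939 CPM of untreated cells. Of the 10 listed factors, 0 were at least 2-fold apart, and the median log2 ratio was 0.20. With LDN 6 rose and 1 (KLF4) fell, beside 6.6% and 7.36% of all genes. The rise of NANOG was not called by DESeq2, over all 5 doses or without the 0, 30 or 100 nM library. That of ZFP42 was not called without the 100 nM library, nor the fall of KLF4 without the 0 nM library.

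The genes furthest below untreated cells at 300 nM LDN, among those with a symbol that averaged 10 CPM or more, mostly lay below untreated cells at every dose. CUZD1 had 7.83, 7.12, 7.47, 9.13 and 10.6 CPM over the doses and 35.4 CPM in untreated cells, 3.35-fold lower at 300 nM (2.93 to 3.84). STC1, the secreted hormone stanniocalcin 1, had 6.51, 6.50, 7.16, 7.20 and 8.99 CPM and 27.5 CPM, 3.06-fold lower (2.63 to 3.56). The level of STC1 hardly differed among treated libraries, and in the 0 h pair it was lower in replicate 2 by 0.74 on the log2 scale. P2RY1, a purine receptor, rose with LDN from 5.91 to 11.9 CPM and was at 29.0 CPM in untreated cells, although that trend (edgeR adjusted p = 0.0139) was not called without the 0 nM (0.164) or the 100 nM library (0.229). ESRG, a long RNA of pluripotent cells, rose in the same manner, with 589, 638, 696, 754 and 804 CPM and 1447 CPM. FOXP4 and FEZF1, both transcription factors, were 1.77-fold and 1.72-fold lower with a rising trend, which was not called without the 0 nM (edgeR adjusted p = 0.226 and 0.153) or the 100 nM library (0.217 and 0.12). ADAMTS8, S100A11, ERVMER34-1, BSCL2 and LMO7 were 2.02 to 2.47-fold lower, as were an uncertain second copy of MATR3 (2.96-fold) and MTATP6P1 (2.03-fold), a nuclear copy of a mitochondrial gene.

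Some genes that were lower at 300 nM than in untreated cells also fell with LDN over 0 to 100 nM. RASGRF2, an exchange factor for RAS and RAC, had 28.2, 23.1, 18.4, 17.6 and 18.2 CPM over the doses and 35.2 CPM in untreated cells, 1.93-fold lower (1.72 to 2.18). TSHZ3 was 1.60-fold lower, and its trend was not called without the 0 nM library (edgeR adjusted p = 0.0729). HMGB1P6 and ANKHD1-EIF4EBP3, a processed copy and a readthrough, were 1.66-fold and 1.64-fold lower and are uncertain, and their trends were not called without the 0 nM library either (edgeR adjusted p = 0.839 and 0.0605). For these genes the untreated level lay above the level without LDN, so the fall with LDN led away from it.

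The mitochondrial genes lay on the lower side as a group. All 15 that passed the expression minimum were lower at 300 nM LDN, 13 with a common shift, 1 by at least 2-fold, and their median log2 ratio was -0.87. Cytosolic ribosomal protein genes had a median of 0.23 over 79 genes, 1 of them at least 2-fold higher, and replication-dependent histone genes a median of -0.14 over 21, with 1 at least 2-fold higher and 1 lower. The part of RNA quality or library preparation in these values was not tested.

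**Figure D5:**
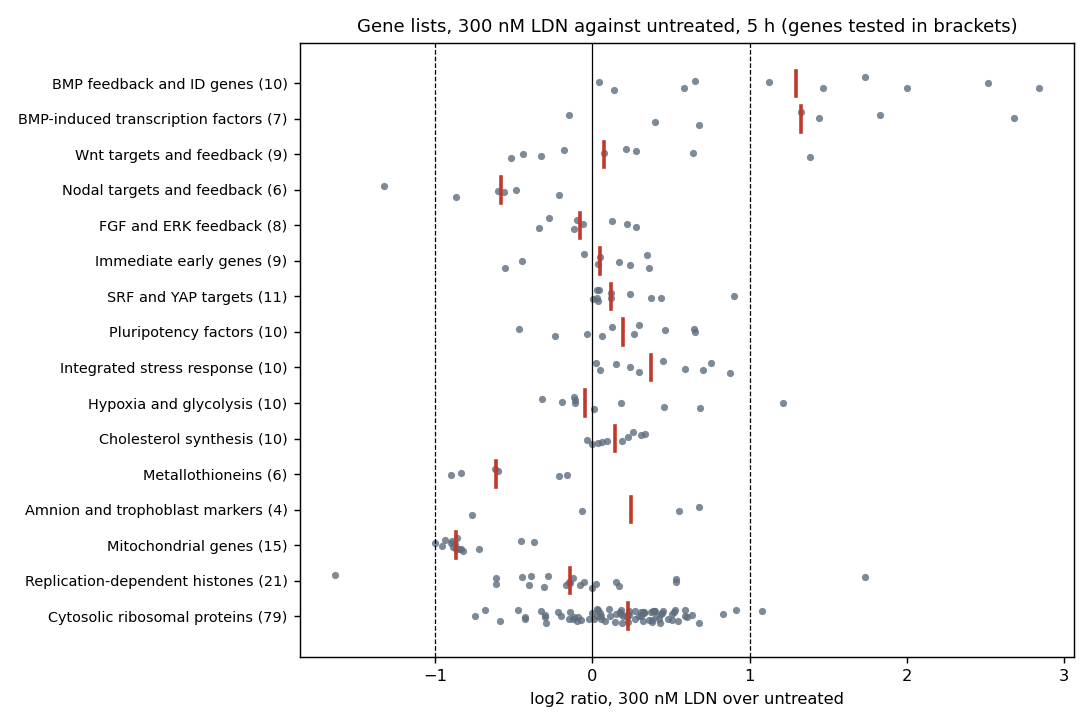
Log2 ratio of 300 nM LDN over untreated for each gene of 16 lists (points, jittered vertically), with the list median as a red bar and the number of genes tested in brackets, and dashed lines marking a 2-fold difference. The BMP lists have medians of 1.29 and 1.33, the Nodal list -0.58 and the mitochondrial genes -0.87, and the other lists lie nearer to 0 except the metallothioneins at -0.61.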

How the data were processed

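The analysis used bulk RNA-seq libraries of RUES2 cells with a GFP::SMAD4 fusion, namely the 6 of the dose response at 5 h and those at 0 and 4 h of the time series. The authors trimmed reads with Cutadapt, aligned them to GRCh38 with STAR 2.7.8a and quantified genes with RSEM 1.3.3. The release of the annotation is not given in the sources used here. The deposited count tables hold RSEM expected counts, whole numbers that are not scaled for depth. The deposited FPKM tables hold values the authors scaled for length and depth, and that of the dose response served as an alternative. The FPKM table of the time series was not used.

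CPM was computed on the total over all features, including 5 that are not part of the genome (Cre and fluorescent proteins, at most 0.00183% of the counts). These 5 were left out of the genes tested. They were also left out of the totals where gene sets were compared between the 0 h libraries. Genes averaging 1 CPM or more across the 6 libraries were used (14877), and 0.1 CPM was added before log2. Totals were 15600931 to 33989998 counts. Ratios have exact (Clopper-Pearson) and shares delta-method intervals at 95%, for counting error only. Bulk tests used edgeR 4.0.16 (quasi-likelihood, TMM, Benjamini-Hochberg adjustment over all genes tested, threshold 0.05) in R 4.3.3, with expected counts rounded: a dose step (0 to 3) over the 4 libraries at 0 to 100 nM LDN, with 2 residual degrees of freedom, and a dose step plus a term for untreated cells over 6 libraries, with 3. DESeq2 1.42.0 was an alternative, beside other scalings, filters, pseudocounts, fold thresholds, a squared dose term and each dose left out. In simulated data with 200 changed genes the fits and intervals were tested.

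Named genes were ID1, AXIN2, the genes of 18 lists, those with the 10 largest ratios in each direction averaging 10 CPM or more and with a symbol, and the 5 largest of each direction with a trend or a common shift. The text says where a gene was named after its values were seen. 1 of the listed genes is not reported here. The members and lists were chosen with earlier results of these data known. Gene positions are from GENCODE 44 and promoters from RefSeq (GRCh38.p14). Other steps ran in Python 3.11.15 with scipy 1.17.1, pandas 2.3.3, numpy 2.4.6 and matplotlib 3.10.9.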

Additional observations from a re-analysis of the deposited data

How the results depend on the processing

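The count of genes at least 2-fold higher at 300 nM LDN (332) was 285 to 439 under the other scalings and units, 141 with 1 CPM added, 543 and 182 with a minimum of 0.5 and 2.5 CPM, 1611 with no filter and 1346 at 1.5-fold. The lower count (96) was 113 to 119 under the other scalings, 175 in FPKM, 52 with 1 CPM added, 173 and 43 with those minimums, 913 with no filter and 442 at 1.5-fold. Relative to genes of like GC content, an alternative chosen after seeing the data, they were 238 and 126. The median log2 ratio of the BMP-induced transcription factors (1.33) was 0.49 in FPKM and 0.61 with 1 CPM added, that of the Wnt genes (0.07) was 0.27 in FPKM and that of the Nodal genes (-0.58) was -0.79. The median share left over listed BMP genes (2.57%) was 4.33% in FPKM. At 2-fold, a common shift was found in 78 genes on the higher and 21 on the lower side.

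Trends over 0 to 100 nM were called in 515 rising and 655 falling genes by DESeq2, and 1550 genes rose with all 5 doses. Leaving out each dose in turn gave 319 to 1144 rising and 580 to 1187 falling genes, with the lowest counts without the 0 nM library. In the 6-library fit it gave 1967 to 2607 genes called higher and 1955 to 2633 called lower, and library totals gave 3246 and 1715. The trend of HMGB1P6 was -0.15 to 0.012 per step when each dose was left out, and turned positive without the 0 nM library. Of the other values, for single genes and for the medians of further lists, 3594 stayed on the same side of their threshold or within their spread, 113 lost a call, 74 gained one and 37 moved by more than their spread (for a gene, the SD between the 0 h libraries). The causes were not tested. No paired analysis was possible because only the 0 h libraries of the time series carry more than 1 replicate number, and both belong to 1 group. With 1 library per condition, the counts show precision only; below about 3 counts (0.192 CPM in untreated cells) a level could not be told from 0.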

Other observations

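Several stress and metabolic genes showed patterns that the BMP, Wnt and Nodal lists do not cover. In the integrated stress response list, 10 of 10 genes passed the expression minimum, 0 were at least 2-fold apart, the median log2 ratio was 0.37, and 4 were called higher and 0 lower in the 6-library fit. DDIT4, an inhibitor of mTORC1, stood at 27.1, 25.3, 25.2, 26.3 and 38.6 CPM at 0, 10, 30, 100 and 300 nM LDN and 21.0 CPM in untreated cells, so that the 300 nM library stood above all the others. The same held for SESN2, a stress-induced regulator of mTORC1, with 25.8, 27.2, 27.4, 29.1 and 38.8 CPM and 23.7 CPM, and for CHAC1, which degrades glutathione, with 26.7, 27.9, 27.6, 35.3 and 47.5 CPM and 28.1 CPM. Their calls in the 6-library fit were lost without the 300 nM library (edgeR adjusted p = 0.212, 0.0722 and 0.0983). PHGDH, the first enzyme of serine synthesis, was instead near even over the doses, with 568, 563, 564, 563 and 595 CPM and 396 CPM in untreated cells, and at 0 h it was higher in replicate 2 by 0.57 on the log2 scale.

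Of 10 cholesterol synthesis genes 8 fell with LDN over 0 to 100 nM, where 7.36% of all genes did, and at 300 nM their median log2 ratio was 0.14 with 0 at least 2-fold apart. HMGCS1, an early enzyme of the pathway, had 1232, 1154, 1036, 998 and 954 CPM over the doses and 815 CPM untreated. SC5D, a late enzyme, stood at 253, 226, 196, 184 and 169.6 CPM over the doses and 166 CPM in untreated cells, a ratio of 1.02 (0.977 to 1.07). Among hypoxia and glycolysis genes (10 of 12 measured, median -0.05) ADM, a vasodilator peptide, was at least 2-fold higher, with 97.5, 99.6, 96.1, 82.3 and 65.1 CPM and 28.1 CPM, and kept 53.3% (48.2 to 58.5%) of its rise. EGLN3, an oxygen-sensing hydroxylase, had 117, 95.6, 85.1, 65.3 and 47.0 CPM and 29.2 CPM and kept 20.2% (16.5 to 23.9%). SLC2A1, the glucose transporter GLUT1, rose with LDN, with 144, 162, 186, 215 and 247 CPM and 308 CPM in untreated cells, although its log2 ratio was 0.77 in FPKM against -0.32 in CPM.

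Metallothioneins bind zinc and copper. Of 7 genes 6 were measured, and all 6 were lower at 300 nM LDN than in untreated cells, with a median log2 ratio of -0.61, 4 called lower in the 6-library fit and 0 trends. MT2A had 10.4, 9.89, 8.95, 10.1 and 9.74 CPM over the doses and 18.3 CPM in untreated cells, and MT1X 34.3, 33.7, 34.2, 33.0 and 37.1 CPM and 57.2 CPM. These genes are close copies of each other, so their separate levels are uncertain. Of 11 measured SRF and YAP targets (median 0.12) AMOTL2, a regulator of YAP, had 106, 103, 95.8, 85.7 and 78.7 CPM and 42.1 CPM and kept 56.9% (50.8 to 63.1%). AMOTL2 also met the rule for a common shift, so treatment and library cannot be told apart in that share. The FGF and ERK feedback genes (8 of 8 measured, median -0.08) and the immediate early genes (9 of 12, median 0.05, or -0.00 without mitochondrial genes in the totals) had 0 members at least 2-fold apart. The measured amnion and trophoblast markers (4 of 9) had a median log2 ratio of 0.24, and the 1 measured neuroectoderm marker, OTX2, rose with LDN to 49.7 CPM, below the 58.9 CPM of untreated cells.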
